A study of Mus musculus with 2 samples.

Results

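The galectins described here are 5 genes chosen by symbol, Lgals1, Lgals3, Lgals3bp, Lgals8 and Lgals9, out of 32286 features measured in single cells of mouse bone marrow. The list was drawn up with results of these data in view, because Lgals3 had stood out as the highest riser of stem or multipotent progenitors in an earlier grouping of the cells, so its values in those cells are a description only. The design compared blood-forming cells of the marrow after MYC was overexpressed in their stem cells. There were 2 libraries, 1 per group. The control library had the genotype Mx1Cre+/-;Rosa26+/+ and the MYC library the genotype Mx1Cre+/-;Rosa26LSL-MYC/LSL-MYC. Both therefore carried 1 copy of Mx1Cre, a Cre recombinase under an interferon-responsive promoter that acts in many blood-forming and some other cells, and differed in the MYC cassette behind a loxP-flanked stop at both Rosa26 alleles. How Cre was induced, and the age, sex and number of the animals, are not given in the sources used here. With 1 library per group, the spread between animals could not be measured, no test was run, and every interval below is a 95% interval for counting error alone.

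Galectins are small proteins that bind galactose-containing sugar chains on glycoproteins and glycolipids. They lack a classical secretion signal, act in the cytosol as well as outside the cell, and are abundant in cells of the monocyte and macrophage lineage. Lgals1 encodes galectin-1, a dimer with 1 sugar-binding domain per chain that is known for promoting T cell death and for its presence on marrow stroma. Lgals3 encodes galectin-3, which joins a single sugar-binding domain to a flexible tail, forms lattices at the cell surface, marks activated macrophages and is recruited to damaged lysosomes. Lgals8 and Lgals9 encode galectins with a pair of sugar-binding domains on 1 chain. Galectin-8 flags ruptured vesicles for autophagy, and galectin-9 is a known interferon-inducible ligand of the checkpoint receptor encoded by Havcr2. Lgals3bp is not a galectin itself: it encodes a secreted, heavily glycosylated protein that galectins bind, and it is also known as an interferon-inducible gene.

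The 5 genes are protein-coding and lie on 4 chromosomes of GRCm38 in the GENCODE annotation. Lgals1 (ENSMUSG00000068220) spans chr15:78926725-78930465 on the plus strand and Lgals3 (ENSMUSG00000050335) chr14:47367751-47386160 on the plus strand. Lgals8 (ENSMUSG00000057554) spans chr13:12439415-12464944 on the minus strand. Lgals9 (ENSMUSG00000001123), at chr11:78962974-78984946, and Lgals3bp (ENSMUSG00000033880), at chr11:118392751-118402092, share a chromosome and are both on its minus strand. RefSeq promoter windows of build GRCm38.p6, from 250 bases before to 50 bases after the start site, were at hand for Lgals3, Lgals3bp, Lgals8 and Lgals9. Those of Lgals9, Lgals3bp and Lgals3 are shown because the first pair are known interferon targets and were lower in the MYC library in some classes, whereas Lgals3 was higher. Capitals mark matches, on either strand, to the core of the interferon-stimulated response element (GAAA, any 2 bases, GAAA) or to AANNGAAA, the shorter element of interferon regulatory factors. Every match to the longer core contains a match to the shorter one. The Lgals3 window lies inside the gene span given by GENCODE, since RefSeq places the start site further downstream.
Lgals9, chr11:78984875-78985174, minus strand: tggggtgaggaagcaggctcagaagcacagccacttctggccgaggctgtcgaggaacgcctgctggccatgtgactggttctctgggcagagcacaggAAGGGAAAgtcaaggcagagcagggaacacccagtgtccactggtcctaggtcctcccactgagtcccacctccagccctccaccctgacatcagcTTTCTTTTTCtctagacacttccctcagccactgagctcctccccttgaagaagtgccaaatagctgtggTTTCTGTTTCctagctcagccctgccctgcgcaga
Lgals3bp, chr11:118401910-118402209, minus strand: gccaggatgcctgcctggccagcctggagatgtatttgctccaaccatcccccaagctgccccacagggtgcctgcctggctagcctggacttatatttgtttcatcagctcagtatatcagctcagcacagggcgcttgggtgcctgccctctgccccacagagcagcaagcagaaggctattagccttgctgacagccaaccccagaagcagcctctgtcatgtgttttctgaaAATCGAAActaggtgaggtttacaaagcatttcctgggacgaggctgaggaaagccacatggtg
Lgals3, chr14:47373610-47373909, plus strand: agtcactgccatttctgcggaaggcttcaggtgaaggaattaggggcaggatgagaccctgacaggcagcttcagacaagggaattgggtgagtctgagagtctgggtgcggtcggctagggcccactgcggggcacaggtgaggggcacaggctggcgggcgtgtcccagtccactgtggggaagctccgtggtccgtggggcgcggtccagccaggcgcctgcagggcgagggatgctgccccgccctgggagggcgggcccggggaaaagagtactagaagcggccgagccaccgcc
The Lgals9 window held 2 matches to the longer core, beginning 55 bases before the start site and at base 16 after it, whereas 3.44% of 32851 promoter windows held at least 1. It held 3 matches to AANNGAAA and the Lgals3bp window 1, 14 bases before its start site, against 23.9% of all windows with at least 1. The windows of Lgals3 and Lgals8 held neither. None of the 4 windows held CACGTG, the E-box that MYC is known to bind, which 7.15% of all windows held. These are matches of letters, and occupancy of the sites was not measured here.

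The deposited matrices held 17073 control and 14496 MYC barcodes with 131884603 and 110012176 UMIs, of which 14903 and 12540 cells were kept, with medians of 5343 and 6016 UMIs per cell. A total of 97 barcodes occurred in both libraries, 79 of them among kept cells. The feature named MYC had 0 UMIs in kept control cells and 289 in kept MYC cells. Cells were clustered without the galectins and grouped into 17 marker-defined classes and 1 unnamed class, a cluster whose cells held a median of 0.135 of their library's median UMIs. Of these, 11 had at least 100 cells in each library and were compared. Values given in pairs are control first and MYC second throughout. Some classes differed in size, with 20 and 634 macrophages and 417 and 18 B progenitors. Mature neutrophils fell into 3 clusters, of which 1 held 117 control and 1723 MYC cells and the other pair 1323 and 146 and 1244 and 159. The class called conventional dendritic cell (214 and 172 cells) led with MHC class II genes together with the macrophage gene Mrc1, and 41.1% and 34.9% of its cells carried a UMI of the complement genes C1qa, C1qb or C1qc, which macrophages make. Its marker score was 3.12 for macrophages and 2.99 for conventional dendritic cells, and it was named by its leading genes. It held 2175 of 3085 control and 1396 of 23340 MYC C1q UMIs, and the macrophage class 354 and 19778. The 20 control macrophages therefore need not be all of that library, and values of the dendritic class are those of a mixed cluster. Levels are given in the usual CPM unit, the UMIs of a gene relative to all UMIs of its class in that library, and a gene is called higher or lower where the fold is at least 1.5 and its interval excludes 1.

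Over all kept cells, the 38747 and 94344 UMIs of Lgals3 made 318.5 CPM for the control and 926.8 CPM for MYC, a log2 ratio of 1.54 (1.52 to 1.56). Lgals1 had 199.7 and 431.7 CPM, a log2 ratio of 1.11 (1.09 to 1.13). Lgals9 went the other way, with 118.4 and 61.9 CPM and a log2 ratio of -0.94 (-0.98 to -0.89). Lgals3bp (24.2 and 21.5 CPM) and Lgals8 (21.2 and 20.4 CPM) were nearly level, with log2 ratios of -0.17 and -0.05 that turned to 0.03 and 0.14 when libraries were scaled by the median of gene ratios. Thus 2 of the 5 were called higher, where 7.93% of 14164 genes were, and 1 lower, where 21.7% were. The median gene stood at -0.16 on this scale. After thinning to 1000 UMIs per cell, which left out 2165 and 2302 shallower cells, the share of cells with a UMI was 26.1% and 51.8% for Lgals3, 10.3% and 16.9% for Lgals1 and 10.6% and 5.44% for Lgals9. Before thinning these shares were 51.5% and 73.5%, 24.2% and 34.3%, and 41.5% and 28.5%. The shares moved in the same directions as the levels.

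Part of these differences came with the change in the mix of classes. When the MYC library's class levels were weighted by the control library's share of UMIs per class, the log2 ratio was 1.05 for Lgals3, 0.80 for Lgals1 and -0.63 for Lgals9. The mix alone, with control levels in every class, gave 0.52, 0.38 and -0.19. All 3 genes thus still differed when the mix of classes was held fixed. Shifts of cells inside a class and free RNA were not separated from this remainder.

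Lgals3 was a gene of monocytes, neutrophils, macrophages and conventional dendritic cells. Its level in the control library was highest in monocytes, at 1004.9 CPM (990.3 to 1019.6), where 46.8% of its UMIs lay and 94.4% of cells carried at least 1. Conventional dendritic cells followed at 606.0 CPM, mature neutrophils at 467.7 CPM and nonclassical monocytes at 407.7 CPM. Immature neutrophils had 387.8 CPM and macrophages 369.2 CPM, and the intervals of these last 3 classes overlapped (362.2 to 457.3 for nonclassical monocytes and 266.1 to 499.0 for the 20 macrophages). Basophils or mast cells, stromal cells and the unnamed cells lay between 227.6 and 255.8 CPM with overlapping intervals. In the MYC library the order began in the same way, with monocytes at 1841.5 CPM (1824.8 to 1858.4) and conventional dendritic cells at 1237.7 CPM, then mature neutrophils at 1138.3 CPM and macrophages at 1033.0 CPM.

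The lowest levels of Lgals3 were in stem or multipotent progenitors, with 22.0 and 29.4 CPM. Plasma cells (26.0 and 86.3 CPM), erythroid cells (29.3 and 90.9 CPM), granulocyte progenitors (30.5 and 73.0 CPM), B progenitors (35.1 and 230.0 CPM, the latter from 22 UMIs) and mature B cells (48.4 and 95.5 CPM) came next. T or NK cells had 58.8 and 165.7 CPM and plasmacytoid dendritic cells 65.3 and 206.3 CPM. All of these were far below monocytes, as the plot of levels by class shows.

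**Figure D1:**
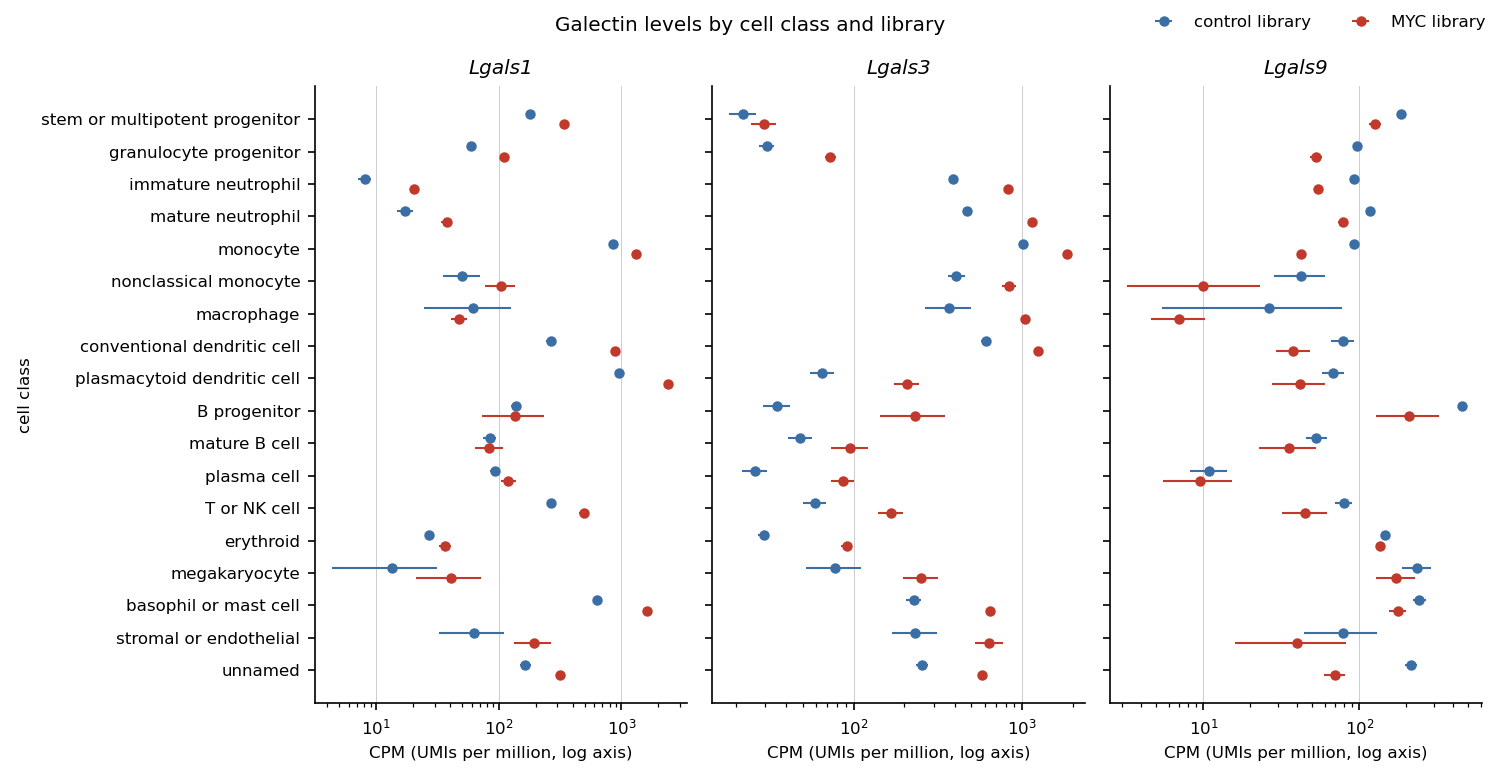
Levels of Lgals1, Lgals3 and Lgals9 in CPM (log axes) in 18 classes, blue for the control and red for the MYC library, with 95% Poisson intervals for counting error. Lgals3 lies to the right in monocytes, neutrophils, macrophages and conventional dendritic cells and is highest in monocytes (1004.9 and 1841.5 CPM), and Lgals9 lies further left in the MYC library in every class.

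In droplet data, RNA released from broken cells is counted in every cell, so low levels were set beside S100a8 and S100a9, the most abundant transcripts of neutrophils. Over the whole control library there were 0.339 Lgals3 UMIs per 100 UMIs of S100a8 and S100a9, and over the MYC library 0.723. In stem or multipotent progenitors, plasmacytoid dendritic cells, B progenitors, mature B cells, plasma cells, T or NK cells, erythroid cells and megakaryocytes, which were grouped after their values were seen, the figure ran from 0.285 to 0.750 in the control and from 0.410 to 0.875 in the MYC library. Mature B cells gave the 0.750, and the other 7 control values did not exceed 0.355. In monocytes it was 8.71 and 19.2, in conventional dendritic cells 4.34 and 11.5, and in basophils or mast cells 1.16 and 4.97. Unnamed cells, with 0.410 and 0.856, were also near the figure of the whole library, and stromal cells had 0.261 and 1.20. At these values Lgals3 in those classes could not be told apart from free RNA, which was not measured directly. Mature B cells of the control and stromal cells of the MYC library stood above the library figure. The few UMIs were also uneven: 9 of 237 control progenitors held 50% of the 125 Lgals3 UMIs of that class.

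**Figure D2:**
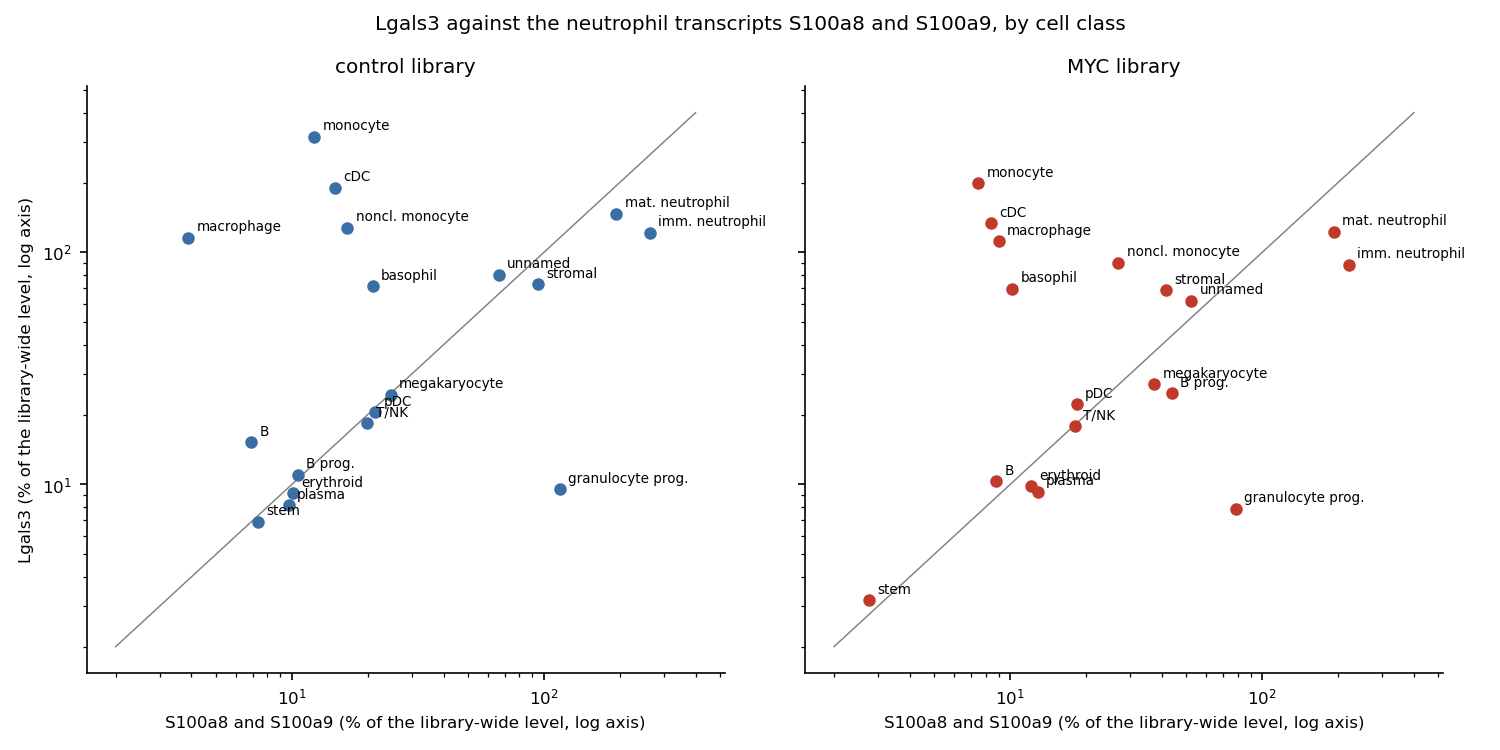
Level of Lgals3 in each class as a percent of its level over the whole library (vertical log axis) against the same percent for S100a8 and S100a9 together (horizontal log axis), control on the left and MYC library on the right; the line marks equal percentages. Stem, lymphoid, plasma, erythroid, plasmacytoid dendritic and megakaryocyte classes lie near the line, for example plasmacytoid dendritic cells at 20.5% against 21.4% in the control, while monocytes (315.5% against 12.3%), macrophages and conventional dendritic cells lie far above it. Exceptions are mature B cells of the control above the line (15.2% against 6.88%) and B progenitors of the MYC library below it (24.8% against 43.8%).

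Lgals3 was higher in the MYC library in all 11 compared classes and was called higher in 10 of them, the exception being stem or multipotent progenitors. The share of genes called higher in a class ran from 4.42% in unnamed cells and 4.47% in stem or multipotent progenitors to 18.0% in conventional dendritic cells. Among classes whose Lgals3 stood clear of the background, the log2 ratio was 0.87 (0.85 to 0.90) in monocytes, where 8.26% of genes were called higher, and 1.03 (0.92 to 1.14) in conventional dendritic cells. It was 1.08 (1.05 to 1.11) in immature neutrophils (8.44% of genes), 1.28 (1.23 to 1.33) in mature neutrophils (8.24%) and 1.51 (1.34 to 1.68) in basophils or mast cells (8.12%). Neutrophils are themselves the source of S100a8 and S100a9, and their Lgals3 stood at 121.7% and 88.6% (immature) and 146.8% and 122.8% (mature) of its library-wide level, far above the 6.71% to 30.8% of the C1q genes there. In granulocyte progenitors the log2 ratio was 1.26 (1.07 to 1.45), at a level near that of the background classes, where 4.85% of genes were called higher.

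In erythroid cells the ratio was 1.63 (13.5% of genes called higher), in T or NK cells 1.49 (7.98%) and in mature B cells 0.98 (5.12%). Unnamed cells had 1.17. Beside these ratios, the Lgals3 UMIs per 100 of S100a8 and S100a9 went from 0.309 to 0.585 in erythroid and from 0.314 to 0.717 in T or NK cells, like the 0.339 and 0.723 of the whole libraries. Mature B cells differed from this, with 0.750 and 0.848, and unnamed cells had 0.410 and 0.856. The share of cells with a C1q UMI was also higher in the MYC library in every class but conventional dendritic cells and macrophages, the latter not counted, for example 3.04% and 14.7% of monocytes and 3.64% and 17.4% of erythroid cells. Without the cells that carried a C1q UMI, Lgals3 was past 1.5-fold in the same number of classes, 10 of 11. This removal leaves the free RNA of the remaining cells in place, so the part of background in these ratios was not tested.

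**Figure D3:**
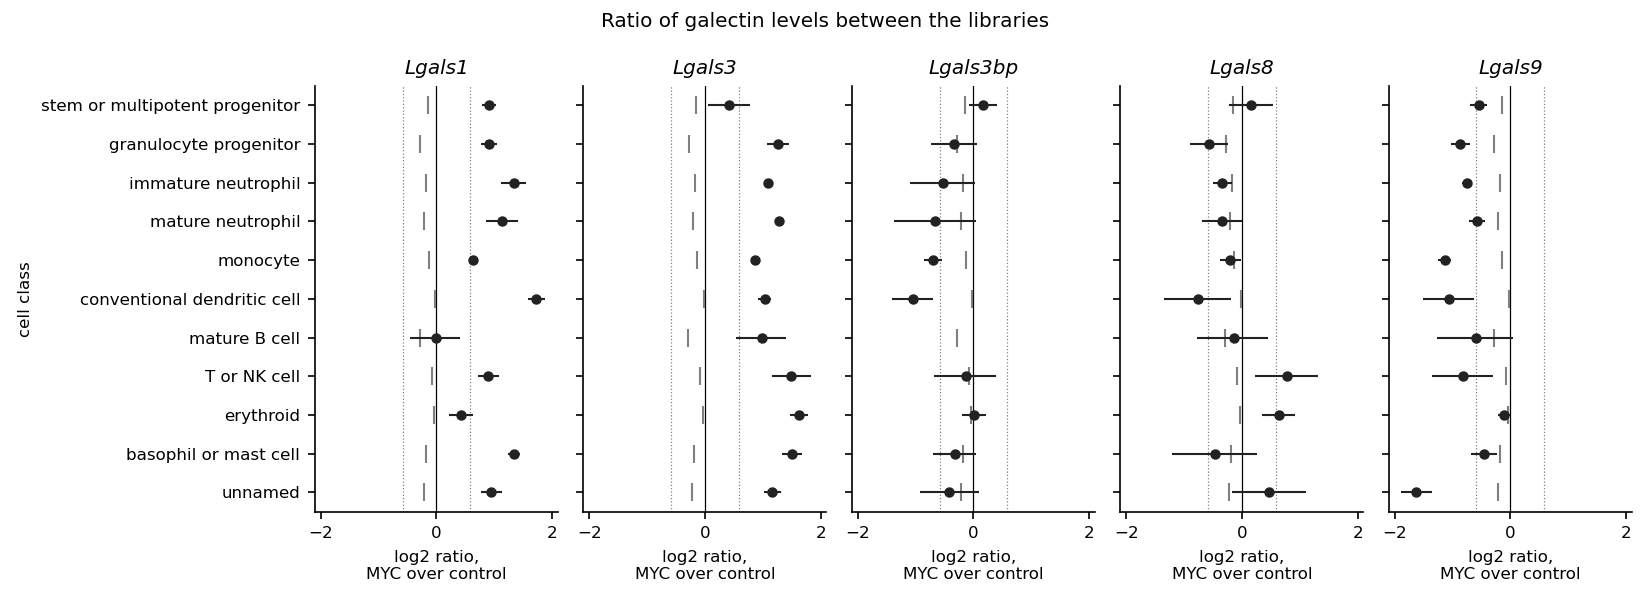
Log2 ratio of CPM, MYC over control, of the 5 genes in the 11 compared classes (points, with 95% counting intervals); grey ticks are the median of all genes in the class and dotted lines mark 1.5-fold. Lgals3 lies right of 0 in all 11 classes and Lgals9 left of 0 in all 11, and Lgals3bp has no point in mature B cells, where its UMIs were too few.

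Within the neutrophil lineage Lgals3 differed between stages and was higher in the MYC library in each cluster. Cluster 19, led by Fcnb and cell-cycle genes, had 116.0 and 357.9 CPM, and cluster 4, led by Camp and Chil3, had 162.2 and 442.7 CPM. Clusters 2 and 1, led by Ltf and by Mmp8 respectively, had 517.7 and 1032.5 CPM and 681.1 and 1412.8 CPM. The 3 mature clusters had 575.0 and 1035.8 CPM (cluster 7), 582.9 and 1167.1 CPM (cluster 3) and 322.8 and 760.5 CPM (cluster 6, led by Ptgs2 and Il1b). Although 1 library supplied most cells of each mature cluster, the log2 ratio within them ran from 0.85 to 1.24, each below the 1.28 of the class as a whole. Lgals3 was thus highest in clusters 1 and 2 and the mature clusters 3 and 7, and lower in the earliest clusters and in cluster 6. The share of cells with a Lgals3 UMI, after the same thinning (58 and 59 immature and 83 and 22 mature cells left out), was 34.7% and 55.1% in immature and 33.4% and 62.7% in mature neutrophils. Before thinning these shares were 84.8% and 93.2%, and 65.9% and 93.1%.

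Monocytes divided into 2 clusters that differed in Lgals1 and Lgals3. Cluster 5, whose cells held about 3.02 times their library's median UMIs and which was led by F13a1 and Klf4, had 825.9 and 1491.3 CPM of Lgals3 and 1042.2 and 1473.5 CPM of Lgals1. Cluster 8, led by Vcan, Fn1 and Ccr2, had more Lgals3, with 1335.6 and 2779.8 CPM, and less Lgals1, with 502.3 and 911.0 CPM. Both genes were higher in the MYC library in both clusters. The log2 ratio of Lgals3 was 0.85 in cluster 5 and 1.06 (1.02 to 1.09) in cluster 8, and that of Lgals1 was 0.50 (0.47 to 0.53, under the fold required) and 0.86.

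**Figure D4:**
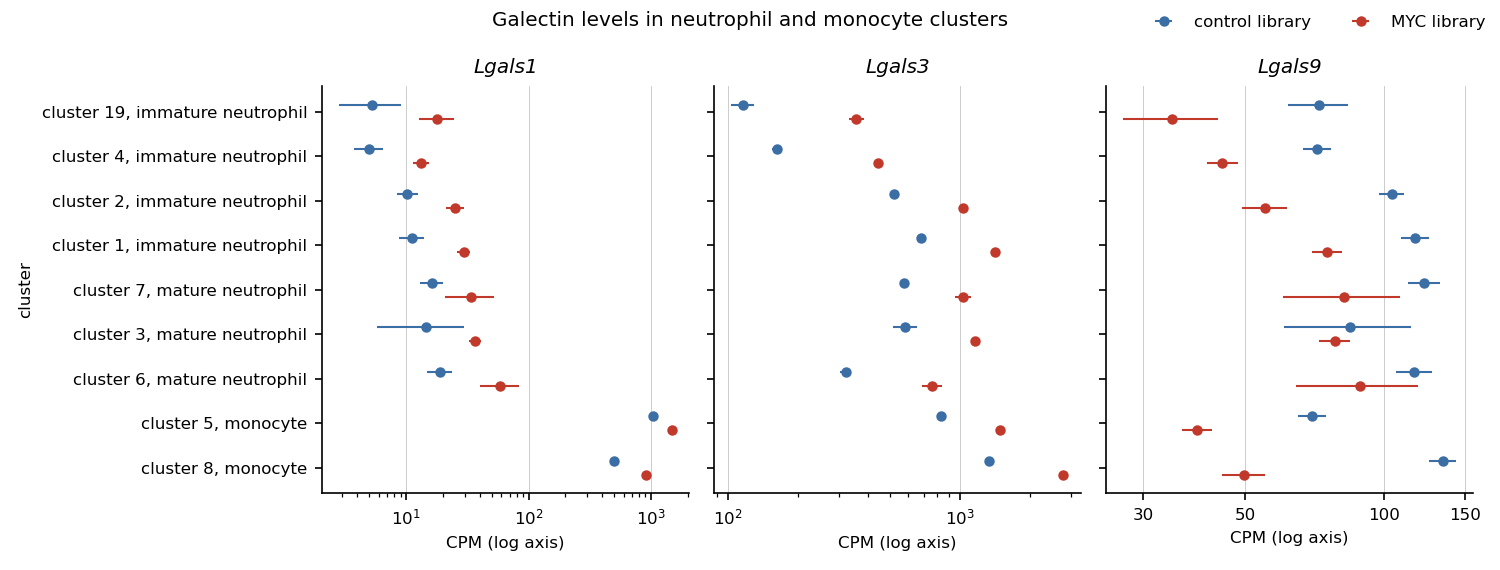
Levels of Lgals1, Lgals3 and Lgals9 in CPM (log axes) in 7 neutrophil and 2 monocyte clusters, blue for the control and red for the MYC library, with 95% Poisson intervals. In the control Lgals3 runs from 116.0 CPM in cluster 19 to 681.1 CPM in cluster 1 and 1335.6 CPM in cluster 8, with the MYC library to the right of the control in each cluster, while Lgals9 lies to the left.

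In stem or multipotent progenitors, the class by which the gene was chosen, Lgals3 had 125 UMIs in 237 control cells and 132 UMIs in 217 MYC cells. Its log2 ratio was 0.42 (0.05 to 0.78), which put it at place 1011 of 9702 genes in the class, between Ung (0.42) and Gm4890 (0.41), or at place 995 with 1 CPM added to each level. Its mean lay under 100 CPM, and among the 1331 genes above that level the largest ratios were those of Prg2, a granule protein of eosinophils (1.89, from 228.8 to 845.8 CPM), and Tfrc, the transferrin receptor (1.61). The stem cell genes Mecom, Meis1 and Hlf were among the 10 leading genes of the class. Among cells with a Mecom or Hlf UMI, Lgals3 had 23.2 CPM in 157 control and 29.9 CPM in 128 MYC cells, and among the rest 19.5 and 28.6 CPM, with overlapping intervals between libraries in each subset. The summed levels of 12 monocyte markers (897.1 and 606.2 CPM), 10 immature neutrophil markers (3244.1 and 1273.4 CPM) and 14 macrophage markers (30.5 and 31.1 CPM) were lower or level in the MYC cells. Those of 3 C1q genes (2.11 and 12.5 CPM), 12 conventional dendritic cell markers (164.7 and 237.1 CPM) and 8 eosinophil markers (276.9 and 1003.3 CPM) were higher. Their part in the Lgals3 value was not tested.

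The value depended on where the class was bounded. With each library clustered on its own the log2 ratio was 4.12, and the MYC class then held 608 cells, of which 382 had been monocytes and 194 stem or multipotent progenitors in the joint clustering. With cells under 5% mitochondrial UMIs it was 1.97, and 171 of the 378 MYC cells had been monocytes, against 44 of 188 control cells. With each cell classified by its markers alone it was 1.65, and with doublets kept and at Leiden resolution 2 it was 0.40 and 0.42. The mean over cells of the joint class gave 0.67, past the fold. The monocyte genes Ly6c2, Ccr2 and Fn1 together had 335.4 and 250.7 CPM in the joint clustering and 335.4 and 252.1 CPM at Leiden resolution 2. They had 118.4 and 144.6 CPM with doublets kept, 765.8 and 1124.8 CPM under the mitochondrial limit and 103.2 and 1540.4 CPM with each library on its own. At Leiden resolution 0.5 and with at least 1000 UMIs per cell no cluster took the name. The 2 groupings with the largest Lgals3 ratios also had the highest monocyte gene levels among MYC cells, while with doublets kept the MYC cells had less of those genes, and more Lgals3 (36.0 CPM), than in the joint clustering. The part of monocyte transcripts in the Lgals3 values was not tested. With markers alone the monocyte genes had 187.2 and 316.9 CPM and most added cells, 63 and 93, came from the unnamed class.

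**Figure D5:**
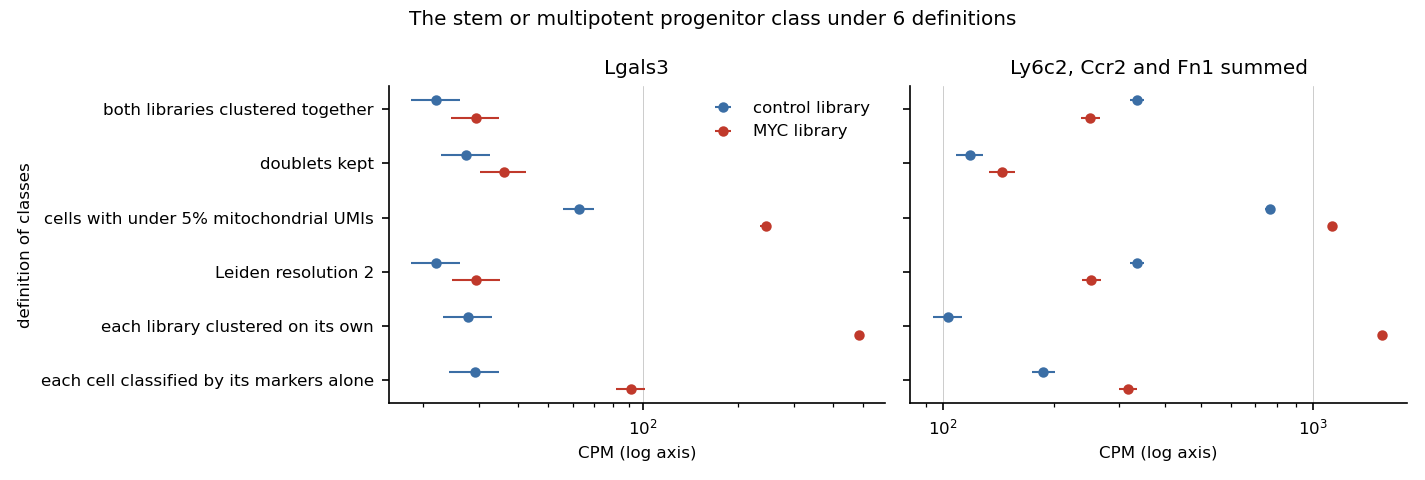
Level of Lgals3 (left) and summed level of the monocyte genes Ly6c2, Ccr2 and Fn1 (right) in CPM (log axes) in the stem or multipotent progenitor class under 6 ways of defining classes, blue for the control and red for the MYC library, with 95% Poisson intervals. Lgals3 in the MYC library runs from 29.4 CPM, where both libraries were clustered together, to 484.8 CPM, where each was clustered on its own, and the monocyte genes run from 144.6 to 1540.4 CPM.

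Monocytes held the largest share of the UMIs of Lgals1, as of Lgals3, but the level of Lgals1 had another order over the classes. In the control library it was highest in plasmacytoid dendritic cells, at 961.6 CPM (921.9 to 1002.5), and 97.2% of these cells carried a UMI. Monocytes had 852.6 CPM (839.2 to 866.2) and held 63.4% of its UMIs, and basophils or mast cells had 633.4 CPM. T or NK cells and conventional dendritic cells had 264.9 and 265.1 CPM and did not differ beyond counting error. Stem or multipotent progenitors had 180.2 CPM (169.3 to 191.6), clear of the background, with 2.61 Lgals1 UMIs per 100 of S100a8 and S100a9 against 0.213 over the library. The lowest level was in immature neutrophils, at 8.06 CPM.

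In the MYC library Lgals1 was called higher in 9 of 11 classes and lower in none, where 4.42% to 18.0% of all genes were called higher in a class. The 9 include unnamed cells and both neutrophil classes, whose Lgals1 was at or near the background, as given below. Conventional dendritic cells had 265.1 and 877.8 CPM, a log2 ratio of 1.73 (1.58 to 1.88) that came to 0.99 with at least 1000 UMIs and 500 genes per cell. In this class 14 macrophage markers had 3170.6 and 1355.0 CPM in sum, and 10 markers of plasmacytoid dendritic cells, the class with the most Lgals1, had 672.1 and 943.0 CPM. Their part in the galectin ratios of the class was not tested. Basophils or mast cells went from 633.4 to 1604.9 CPM, a log2 ratio of 1.34 (1.24 to 1.45). Stem or multipotent progenitors went from 180.2 to 338.6 CPM, with a log2 ratio of 0.91 (0.79 to 1.03). As for Lgals3, the value depended on the bounds of the class, and it was 3.30 (117.4 and 1154.8 CPM) with each library clustered on its own. T or NK cells had 0.90, granulocyte progenitors 0.91 and unnamed cells 0.95, of which the last pair fell short of the fold under separate clustering, at 0.36 and 0.56. Unnamed cells were near the background also for Lgals1, with 0.265 and 0.474 UMIs per 100 of S100a8 and S100a9 beside 0.213 and 0.337 over the libraries. The ratio in monocytes was 0.63 (0.60 to 0.66), just past the fold required, and it fell short, at 0.51, when the 20 most abundant genes were left out of the denominator and, at 0.53, when each library was clustered on its own. Plasmacytoid dendritic cells, with only 62 MYC cells, were not compared, but their level was 2373.7 CPM (2258.7 to 2492.9) in the MYC library against 961.6 CPM.

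Mature B cells had 84.5 and 83.8 CPM of Lgals1, a log2 ratio of -0.01 (-0.45 to 0.41), and erythroid cells had 0.43, with neither called. Both values depended on the setting: mature B cells ran from -0.26 with at least 1000 UMIs per cell to 0.74 with the mean over cells. Erythroid cells had 1.93 with the mean over cells and 1.19 with each cell classified by its markers alone, both past 1.5-fold. In erythroid cells 8 of 1482 control cells held 50% of the Lgals1 UMIs. The class was near the background, with 0.286 and 0.235 Lgals1 UMIs per 100 of S100a8 and S100a9 beside 0.213 and 0.337 over the libraries. Neutrophils were called higher at 1.34 in immature cells (8.06 to 20.4 CPM) and 1.13 in mature cells (17.2 to 37.7 CPM). These levels were 4.04% and 4.72% of the library-wide Lgals1 level in immature and 8.62% and 8.74% in mature neutrophils. The C1q genes, which neutrophils are not known to make, stood at 10.9% and 6.71% of theirs in immature and at 30.8% and 12.4% in mature neutrophils. Lgals1 in neutrophils was therefore at or under the level of a gene from other cells, and could not be told apart from background.

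Lgals9 had yet another distribution. In the control library it was highest in B progenitors, at 452.8 CPM (430.9 to 475.6). Basophils or mast cells (241.4 CPM), megakaryocytes (232.8 CPM) and unnamed cells (214.0 CPM) followed with overlapping intervals, and stem or multipotent progenitors had 183.9 CPM (172.9 to 195.4), with a UMI in 90.3% of cells. Erythroid cells had 146.6 CPM on the whole, but cluster 17, led by Car1 and with the most UMIs per cell, had 286.8 CPM, and clusters 10 and 12 had 60.7 and 64.9 CPM. Plasma cells were low, at 10.9 and 9.46 CPM. Macrophages of the MYC library had 7.01 CPM (4.62 to 10.2), from 27 UMIs in 634 cells, so the class that was high in Lgals3 had almost no Lgals9.

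The level of Lgals9 was lower in the MYC library in all 11 classes of the joint clustering and was called lower in 6. With each library clustered on its own it was above 0 in mature B cells (0.24) and erythroid cells (0.06), and the latter had 0.11 under the 5% mitochondrial limit; neither class was called. Unnamed cells had the largest difference, with 214.0 and 69.5 CPM, a log2 ratio of -1.62 (-1.89 to -1.36), where 17.9% of genes were called lower. In these cells 10 B progenitor markers had 351.1 and 51.7 CPM in sum and 11 mature B cell markers 345.7 and 57.3 CPM, and their part in the Lgals9 difference was not tested. In monocytes the control level of 92.3 CPM (87.9 to 96.9) compared with 42.0 CPM (39.5 to 44.7) under MYC, at -1.13 on the log2 scale, where 16.3% of genes were called lower. Within them cluster 8 changed from 134.0 to 49.6 CPM, at -1.43 (-1.62 to -1.25), and cluster 5 from 69.7 to 39.2 CPM, at -0.83. The fall in monocytes was thus larger in the cluster led by Fn1 and Ccr2. Conventional dendritic cells had -1.06 (16.3%), granulocyte progenitors -0.86 (26.0%), T or NK cells -0.81 (9.38%) and immature neutrophils -0.75 (16.8%). Under median-of-ratios scaling granulocyte progenitors and immature neutrophils, at -0.58 and -0.56, fell short of the fold, as did T or NK cells, at -0.48, with the mean over cells. In T or NK cells 12 NK markers had 3714.7 and 7951.2 CPM in sum and 13 T cell markers 3554.5 and 4190.7 CPM. Their part in the galectin ratios of the class was not tested.

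In the other 5 classes Lgals9 was not called. Mature neutrophils had 117.7 and 78.8 CPM, a log2 ratio of -0.58 just short of the fold (-0.60 with the mean over cells and under the 5% mitochondrial limit; 22.8% of genes called lower), with -0.11, -0.39 and -0.58 within clusters 3, 6 and 7. Stem or multipotent progenitors had 183.9 and 125.7 CPM, at -0.55 (-0.70 to -0.40; 12.1%). As for Lgals3 and Lgals1, this value depended on the bounds of the class: it was past 1.5-fold in 5 of 10 alternatives and reached -1.47 (208.8 and 75.5 CPM) when libraries were clustered separately. Mature B cells had -0.59 with an interval that includes 0 (-1.27 to 0.04; 18.3%) and basophils or mast cells -0.45 (17.9%). Erythroid cells had -0.11 (-0.22 to -0.01; 13.3%), or -0.62 with the mean over cells. Their cluster 10 had 60.7 and 19.6 CPM, at -1.63, and cluster 17, with most of the UMIs, had -0.11. Scaling the libraries by the median of gene ratios, which moved the median gene by 0.20 over all cells, left Lgals9 at least 1.5-fold lower in 4 classes, against 7 by the fold alone without it, and Lgals3 and Lgals1 at least 1.5-fold higher in 10 and 9. B progenitors had 452.8 CPM in 417 control and 209.1 CPM (127.7 to 322.9) in 18 MYC cells and were not compared.

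Ratios between galectins within a class do not depend on how libraries are scaled. Over all cells each Lgals9 UMI was met by 2.69 Lgals3 UMIs in the control library and by 14.97 with MYC, a change of 5.56-fold (5.39 to 5.74). In monocytes the ratio went from 10.9 to 43.8, or 4.02-fold, in immature neutrophils from 4.22 to 15.04 and in mature neutrophils from 3.97 to 14.5. Conventional dendritic cells went from 7.70 to 32.8 and basophils or mast cells from 0.943 to 3.67, or 4.25-fold and 3.89-fold. The ratio is not read in the classes whose Lgals3 stood near the background.

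Lgals3bp, the secreted glycoprotein that galectins bind, was compared next. In the control it had 114.6 CPM (99.3 to 131.6) in conventional dendritic cells and 86.8 CPM in basophils or mast cells, and in the MYC library 123.5 CPM (112.7 to 135.2) in macrophages and 69.5 CPM in basophils or mast cells. Neutrophils had 1.48 to 4.80 CPM, at 6.88% to 19.9% of the library-wide level and so within the range of the C1q genes there. It was called lower in 2 of the 10 classes with enough UMIs and higher in none, which is near the share of all genes called lower, 16.3% in each of those 2 classes. Conventional dendritic cells had 114.6 and 55.5 CPM, a log2 ratio of -1.05 (-1.41 to -0.69) that fell short of the fold, at -0.55, with each cell classified by its markers alone. The lower macrophage markers of that class are given above. Monocytes went from 40.4 to 24.9 CPM, at -0.70 (-0.86 to -0.54). The difference lay in cluster 8, with 74.4 and 37.7 CPM, at -0.98 (-1.21 to -0.76), while cluster 5 had 22.0 and 20.1 CPM, at -0.13 (-0.36 to 0.10). The monocyte ratio was -0.54 under median scaling, short of 1.5-fold. Stem or multipotent progenitors had 53.7 and 60.1 CPM, at 0.16 (-0.08 to 0.40), with an interval that includes no difference, but -0.15 under the 5% mitochondrial limit and -0.69 when libraries were clustered separately.

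Lgals8, the sensor of ruptured vesicles, was low and even, between 13.5 and 45.3 CPM in the control in all classes but the 20 macrophages (8.79 CPM, 1 UMI). Mature B cells were highest at 45.3 CPM (38.1 to 53.3) in the control, and T or NK cells at 53.6 CPM (39.0 to 72.0) in the MYC library. Both intervals overlapped those of other classes, such as control conventional dendritic cells (32.6 to 52.3) and MYC macrophages (42.8 to 57.1). It was called higher in T or NK cells (31.1 and 53.6 CPM, at 0.78, 0.23 to 1.32) and in erythroid cells (13.5 and 21.0 CPM, at 0.64), and lower in conventional dendritic cells (41.6 and 24.6 CPM, at -0.76). The last fell short of the fold with each cell classified by its markers alone (-0.12), with at least 1000 UMIs per cell (-0.48) and at Leiden resolution 2 (-0.57). So did the erythroid value when libraries were clustered separately (0.49) and without the 20 most abundant genes (0.50), whereas the mean over cells gave 1.60. Monocytes had 25.4 and 22.1 CPM and stem or multipotent progenitors 22.4 and 24.9 CPM, a log2 ratio of 0.16 that was -0.38 when libraries were clustered separately. These counts of 2 higher and 1 lower out of 11 are near the shares of all genes called in the classes.

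Other genes of the family were scarce. Over all kept cells Lgals4 had 346 and 232 UMIs, Lgals7 71 and 41, and Lgalsl, which encodes a galectin-like protein, 417 and 455. Lgals2 had 8 and 7 UMIs, Grifin 3 and 4 and Lgals12 0 and 1, and Lgals6 was not analysed here. Lgals4 was called lower in mature neutrophils on 61 and 38 UMIs, where 22.8% of all genes were. Lgalsl was called higher in granulocyte progenitors, on 27 and 38 UMIs, and in basophils or mast cells, at 0.64 on 86 and 111 UMIs (4.85% and 8.12% of all genes).

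Among glycoproteins that galectins bind, 1 of 14 measured genes was called higher and 5 lower in monocytes, beside 8.26% and 16.3% of all genes. Immature neutrophils had 1 and 5 of 11, beside 8.44% and 16.8%. Mature neutrophils had 1 and 3 of 11, beside 8.24% and 22.8%, and stem or multipotent progenitors 1 and 2 of 11, beside 4.47% and 12.1%, so the counts in this last pair of classes were near the background. Tfrc was the one called higher in progenitors (53.4 and 162.8 CPM), in monocytes (27.1 and 72.0 CPM) and in immature neutrophils (31.6 and 55.6 CPM). Ptprc, the phosphatase CD45, went from 519.9 to 287.7 CPM in monocytes and from 1701.0 to 1024.6 CPM in mature neutrophils. Cd44, the hyaluronan receptor, went from 329.4 to 197.5 CPM in immature neutrophils and from 108.3 to 71.0 CPM in progenitors. Spn differed in direction, at -0.72 in monocytes and 0.69 in mature neutrophils. Over the list the median was -0.40 on the log2 scale in monocytes and -0.44 in immature neutrophils, beside -0.14 and -0.17 for all genes.

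Among enzymes that build or cap galectin ligands none was called higher in these 4 classes. Of 13 or 14 measured, 5 were called lower in immature neutrophils, 3 in mature neutrophils, 3 in monocytes and 1 in progenitors. Beside the shares of all genes called lower just given, the counts in mature neutrophils, monocytes and progenitors were near the background. Gcnt1, which branches O-glycans, had -0.92 in monocytes and -0.71 in immature neutrophils. Man1a, a mannosidase that trims N-glycans, had -0.88 in monocytes, and B4galt1, which adds galactose, -0.70 in immature neutrophils. Slc35a2, the UDP-galactose transporter, had -1.04 and Mgat4a, which branches N-glycans, -0.997 in mature neutrophils, and C1galt1, which makes the core O-glycan, went from 106.4 to 58.3 CPM in progenitors.

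The median of the interferon-response genes was under that of all genes in every compared class but T or NK cells. Lgals9 and Lgals3bp are known members of that response, and whether their values go with the list was not tested. In monocytes 24 of 26 were called lower and none higher, where 16.3% of all genes were called lower, and Rsad2 went from 34.9 to 3.36 CPM. The median of the list there was -1.46, beside -0.14 for all genes. In mature neutrophils 20 of 24 were called lower (22.8% of all genes), with Ifit1 from 113.4 to 30.3 CPM, and in immature neutrophils 17 of 24 (16.8%), with Usp18 at -1.52. The medians were -1.20 and -0.68, beside -0.21 and -0.17 for all genes. In stem or multipotent progenitors 5 of 21 were called lower (12.1% of all genes), among them Ifi27l2a (-1.21) and Ifi44 (-1.20), and 1 higher, Bst2 (0.82). In T or NK cells, where Lgals9 was called lower, 2 of 19 were (9.38% of all genes), and the list's median was 0.05, beside -0.08. In erythroid cells 16 of 23 were called lower (13.3% of all genes) and 1 higher, with a median of -1.06 beside -0.04. Lgals9, at -0.11, and Lgals3bp, at 0.01, were not called there. Over the 11 classes the ratio of Lgals9 had a Pearson correlation of 0.15 with the list's median, and that of Lgals3bp 0.66 over 10 classes; these points share the same 2 libraries.

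Lipid-handling macrophage genes, several of which accompany galectin-3 in tissue macrophages, had 4 of 12 called higher and 1 lower over all cells (7.93% and 21.7% of all genes), with a median log2 ratio of 0.34 beside -0.16. Macrophages were 20 control and 634 MYC cells, and over all cells 14 macrophage markers had 177.9 and 349.7 CPM in sum and the 3 C1q genes 25.4 and 229.3 CPM. Trem2, a lipid receptor, went from 6.85 to 18.4 CPM there. Erythroid cells had 4 of 9 called higher (13.5% of all genes) and unnamed cells 5 of 10 (4.42%), with none lower in either. The C1q genes of macrophages were also higher there, with 3.45 and 25.1 CPM in erythroid and 50.8 and 255.4 CPM in unnamed cells, as in immature neutrophils (2.75 and 15.4 CPM) and progenitors (2.11 and 12.5 CPM). The 14 macrophage markers together had 76.6 and 70.4 CPM in erythroid cells, 241.8 and 407.0 CPM in unnamed cells, 139.7 and 135.3 CPM in immature neutrophils and 30.5 and 31.1 CPM in progenitors. The part of macrophage transcripts in the calls of this list was not tested. Conventional dendritic cells went the other way, with 1 of 10 called higher and 4 lower (18.0% and 16.3%) and a median of -0.41 beside -0.02. In monocytes 3 of 11 were called higher and 3 lower (8.26% and 16.3% of all genes): Ctsl, a lysosomal protease, went from 24.5 to 62.6 CPM and Apoe from 175.5 to 309.3 CPM, whereas Lpl went from 82.2 to 29.4 CPM, and the median was -0.03 beside -0.14. In progenitors 4 of 8 were called higher (4.47% of all genes) and none lower, with Fabp5 from 101.5 to 190.9 CPM. Of the 10 measured in each neutrophil class, 4 were called higher in immature cells (8.44%) and none lower, among them Apoe at 6.85 and 12.5 CPM. In mature cells 1 was called higher (8.24%), Cd63 (146.8 and 261.0 CPM), and 1 lower (22.8%), Lipa (48.1 and 28.2 CPM). Of 9 genes of the response to damaged lysosomes, none or 1 was called in each direction in monocytes, progenitors and both neutrophil classes, which is near or under those shares. Pdcd6, a calcium sensor that recruits repair proteins, was called higher in monocytes (0.63) and mature neutrophils (0.65). Its partner Pdcd6ip was called lower in immature neutrophils (-0.65), and Tfeb, a regulator of lysosomal genes, in mature neutrophils (-0.71).

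Genes with the most similar distribution were ranked by Pearson correlation of log2 CPM over 26 pairs of class and library from 16 classes, which share their 2 libraries and depth. For Lgals3 they were Pirb (0.87), Fcer1g (0.86) and Tgfbi (0.85), and for Lgals1 S100a10 (0.86), Mvb12a (0.85) and Crip1 (0.84). Lgals3bp was nearest to Nrip1 (0.86), Stat5a (0.82) and Ptprs (0.80), and Lgals9 to Ppp2r2d (0.87), Ankrd13a (0.82) and Vbp1 (0.82). Among the 5 genes themselves the highest correlation was 0.62, between Lgals1 and Lgals3bp. Lgals3 and Lgals1 had 0.13 and Lgals3 and Lgals9 -0.27, so their distributions over classes differed.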

How the data were processed

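Droplet-based 3′ single-cell RNA sequencing was done on mouse bone marrow cells in 2 libraries. The deposited matrices hold raw UMI counts by gene and by barcode, and their headers name Cell Ranger 6.0.0. Per the submitters' processing notes, Cell Ranger 6.0 and Seurat were used and the builds GRCm38 and mm10 are named. Gene identifiers were matched to the GENCODE annotation of GRCm38 (32158 of 32286 matched, 99.6%). Cells with at least 500 UMIs, 200 genes and under 10% mitochondrial UMIs were kept, 15461 control and 12896 MYC cells. Cells with a Scrublet score above 0.2 were removed as doublets, 558 and 356. That score was set after the data were seen, because the automatic threshold removed 558 and 0. Doublets therefore remain, and nothing was corrected for free RNA.

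Both libraries were clustered together with scanpy 1.11.5 (Leiden resolution 1, 15 neighbours, 30 principal components of 2000 variable genes, without the galectins and all listed genes). Clusters were named from fixed markers by score, with at least 3 markers detected in 10% of cells and no other class better represented among the 10 leading genes; parts of this rule were set after the data were seen. Rebuilt classes can differ from the study's own. The members and gene lists were chosen with earlier results of these data known. Named genes were the 5 galectins, the 3 genes most alike to each of 4 of them (mean of at least 20 CPM), the 2 largest rises and falls past 1.5-fold per list in 4 classes, and the genes next to Lgals3 in the progenitor ranking; cluster leaders and context genes were added later.

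UMIs were summed per class and library. Levels have exact Poisson intervals, ratios exact conditional binomial intervals and shares Clopper-Pearson intervals, all at 95% and for counting error only. Genes needed at least 50 UMIs and classes 100 cells per library. Ratios of 2 genes have intervals from the normal approximation on the log scale. To compare shares, cells were thinned to 1000 UMIs and shallower ones left out (2165 of all control cells). The ratio and call rule was tested on simulated counts with known folds. Medians over all genes or a list were taken on the log2 scale after 1 CPM was added. Other cell filters, clusterings, scalings, thresholds and class mixes were tried, and 1 of these choices, which leaves out clusters mostly of 1 library, was made after the data were seen.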

Additional observations from a re-analysis of the deposited data

How the results depend on the processing

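Of 33 galectin ratios called over all cells or in a class, all 33 kept their direction under every alternative that gave a value, and 23 stayed past 1.5-fold throughout. Of 682 alternative values over 59 results, 136 moved beyond the counting interval. The log2 ratios over all kept cells were 1.11 for Lgals1, 1.54 for Lgals3, -0.17 for Lgals3bp, -0.05 for Lgals8 and -0.94 for Lgals9. With doublets kept Lgals3 gave 1.52. With cells under 5% mitochondrial UMIs Lgals1, Lgals3 and Lgals9 gave 1.33, 1.44 and -0.86. Median-of-ratios scaling gave 1.31, 1.74, 0.031, 0.14 and -0.74 for the genes in the order above. Without the 20 most abundant genes Lgals1, Lgals3 and Lgals9 gave 1.03, 1.46 and -1.01, and the control makeup of classes gave 0.80, 1.05 and -0.63. The mean over cells gave 1.03, 1.37, -0.030, 0.15 and -1.08. Without the clusters that held at least 5 times as many cells of 1 library, a choice made after seeing the data, Lgals1, Lgals3, Lgals3bp and Lgals9 gave 1.18, 1.52, -0.47 and -0.79. The cause of these shifts was not tested. By the fold alone Lgals9 was at least 1.5-fold lower in 7 of 11 classes, in 4 under median scaling and in 8 with cells under 5% mitochondrial UMIs. Lgals9 turned above 0 in erythroid cells in the latter (0.11) and in erythroid (0.06) and mature B cells (0.24) when libraries were clustered separately; it was called in neither class. Lgals1 was at least 1.5-fold higher in 9 of 11 classes, in 5 of 10 after separate clustering and in all 11 with the mean over cells. No paired analysis was possible because each group has 1 library. Classes with few UMIs, such as macrophages of the control, limit what could be compared.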
